A study of Mus musculus with 15 samples.

Results

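The genes described here encode albumin and 7 other carrier proteins that hepatocytes secrete into blood plasma. They are Alb, Ttr, Gc, Trf, Afm, Hpx, Ambp and Serpina6. They were chosen by name, all 8 were measured and all 8 passed the filter on low counts, among 25731 genes measured and 13967 tested. Whole livers of C57BL/6 mice, an inbred laboratory strain, were sequenced as total RNA after 3 days of feeding. Mice were fed a ketogenic diet (KD), which is very low in carbohydrate and high in fat, from 12 weeks of age, a high-fat diet (HFD), also from 12 weeks, or chow (CD), with 5 libraries per diet. The sources used here do not give the sex of the mice, the age of those on chow, what the diets contained or any preparation batch. A batch that followed the diets cannot be told apart from diet. No label says that the libraries of a diet come from separate mice, so each was taken as 1 mouse, and p-values measure the spread between libraries.

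Carrier proteins keep poorly soluble or reactive small molecules, such as fatty acids, hormones, vitamins, iron and heme, dissolved and shielded in plasma. They carry these between tissues and buffer the free amount that cells meet. The liver makes most of them and secretes them through the endoplasmic reticulum, and their transcripts are among the most abundant in hepatocytes. Transthyretin and albumin are known to fall, and hemopexin and haptoglobin to rise, in the acute-phase response of rodents.

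Reads assigned per library summed to between 34707597 and 50914494 on KD, between 30121672 and 44764257 on HFD and between 30190806 and 43688344 on CD. Levels are given as CPM, read counts scaled to a common library size by the trimmed-mean (TMM) method, which compares diets for 1 gene. They are also given as the deposited TPM, which is scaled for transcript length and allows genes to be compared. Differences are log2 fold changes with standard errors (SE) from edgeR's quasi-likelihood test over all 15 libraries. A gene was called when its Benjamini-Hochberg adjusted p over all genes tested was under 0.05. All 11 hepatocyte markers examined were detected, and they summed to 29849 to 35092 CPM on KD, 28188 to 33240 CPM on HFD and 21637 to 27708 CPM on CD. Of these, 4 rose and 1 fell on KD against CD, and 4 rose and none fell on HFD against CD. Over all genes tested, 16.2% rose and 14.6% fell on KD against CD, and 8.3% rose and 7.32% fell on HFD against CD. Markers of red cells summed to 338 to 555 CPM on KD, 399 to 1167 CPM on HFD and 735 to 1076 CPM on CD, and all 5 were lower on KD than on CD. Markers of B and plasma cells summed to 3.0 to 4.01 CPM on KD, 4.34 to 8.44 CPM on HFD and 5.49 to 15.3 CPM on CD, and 5 of 6 were lower on KD than on CD. No marker of either list was at 0 in all libraries of a diet. Their part in the results below was not tested. In bulk tissue, fewer cells of a type and less RNA per cell cannot be told apart. HFD libraries 9, 10 and 11 and CD library 19 stood apart from the others, with longer effective lengths, the per-transcript lengths that kallisto uses to turn reads into TPM. Leaving them out leaves 2 HFD and 4 CD libraries. Where that made or ended the call of a carrier gene, the value without them is given.

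Compared per length, albumin was the most abundant of the 8 on every diet and afamin or the corticosteroid carrier the least. Alb, which carries fatty acids, bilirubin and many drugs, averaged 56684 ± 3281 TPM on KD, 35111 ± 3736 TPM on HFD and 43474 ± 7103 TPM on CD (SD, n = 5 each). It ranked 1 among all genes in each KD library, 2 to 6 in HFD libraries and 2 to 4 in CD libraries. Trf followed, at 10995 TPM on KD, 8830 TPM on HFD and 10663 TPM on CD. Gc averaged 5653 TPM on KD, 4327 TPM on HFD and 4761 TPM on CD. Ttr averaged 3733 TPM on KD, 3223 TPM on HFD and 4174 TPM on CD. Hpx and Ambp came next and changed places with diet. Hpx averaged 2327 TPM on KD, 1406 TPM on HFD and 1240 TPM on CD. Ambp averaged 1510 TPM on KD, 1272 TPM on HFD and 1481 TPM on CD. Serpina6 and Afm were the low-abundance members. Serpina6 averaged 175.7 TPM on KD, 110.8 TPM on HFD and 118.2 TPM on CD. Afm averaged 143.3 TPM on KD, 101.2 TPM on HFD and 128.9 TPM on CD. The highest TPM of Afm or Serpina6 in any library, 223.8, lay below the lowest of the other 6 genes, 1125.

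Together the 8 genes took 9.27 ± 0.34% of reads on KD, 7.4 ± 0.0554% on HFD and 8.64 ± 0.619% on CD (SD, n = 5 each). The 5 KD libraries ran from 8.69 to 9.57%, the HFD libraries from 7.34 to 7.46%, and the CD libraries from 7.61 to 9.21%. KD lay above HFD without overlap, and CD library 19, at 7.61%, was just above the highest HFD library. Most of this was albumin, which made up 74.6 ± 1.1% of the reads of the 8 genes on KD, 71.4 ± 0.667% on HFD and 72.6 ± 1.34% on CD. Without albumin, the other 7 genes took 2.35 ± 0.154% of reads on KD, 2.12 ± 0.0438% on HFD and 2.36 ± 0.0806% on CD. Shares of reads depend on the other abundant genes. The major urinary proteins, pheromone carriers made by the liver, took 4.62 ± 0.92% on KD, 11.1 ± 3.1% on HFD and 10.2 ± 2.58% on CD. The 4 libraries with longer effective lengths had the highest shares, at 13.4, 14.4 and 12.2% in HFD 9, 10 and 11 and 14.5% in CD 19. The next highest was 10.7%, in CD 15. Results without the 4 libraries therefore leave out the highest shares too, and the 2 traits cannot be told apart there.

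**Figure D1:**
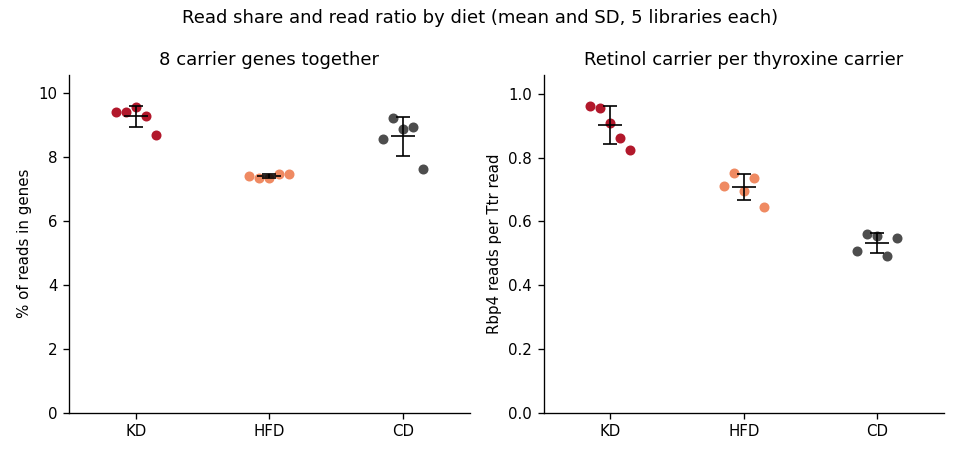
Left, percent of reads in genes taken by the 8 carrier genes together; right, reads of Rbp4 per read of Ttr; KD, HFD and CD run left to right, with a point per library and bars for mean and SD (5 libraries each). The KD libraries take 8.69 to 9.57% of reads against 7.34 to 7.46% in HFD libraries, and the Rbp4 to Ttr ratio separates all 3 diets.

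The 8 genes did not move as a block. On KD against CD, Hpx rose and Ttr, Ambp and Afm fell, so 4 of 8 were called, where 30.8% of all genes tested were called (16.2% higher, 14.6% lower) and 56.4% of the 1210 genes averaging at least 100 CPM. On HFD against CD, Ttr, Afm and Alb fell and none rose, so 3 of 8 were called, against 15.6% of all genes (8.3% higher, 7.32% lower) and 29.0% of the abundant ones. On KD against HFD, Alb, Hpx and Serpina6 rose and none fell, so 3 of 8 were called, against 26.1% of all genes (13.1% higher, 13.0% lower) and 43.9% of the abundant ones. Set against abundant genes, the share of members called was near the background in each comparison. The libraries of both diets did not overlap for Hpx, Ttr, Ambp and Afm on KD against CD (22.3% of all genes), for Ttr and Afm on HFD against CD (10.3%) and for Alb on KD against HFD (17.0%). The median log2 fold change of the 8 was -0.04 for KD against CD, beside -0.01 over all genes tested. It was -0.19 for HFD against CD, beside 0.01 over all genes, and 0.15 for KD against HFD, beside -0.02 over all genes. The comparisons share libraries, so they are not independent of each other.

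**Figure D2:**
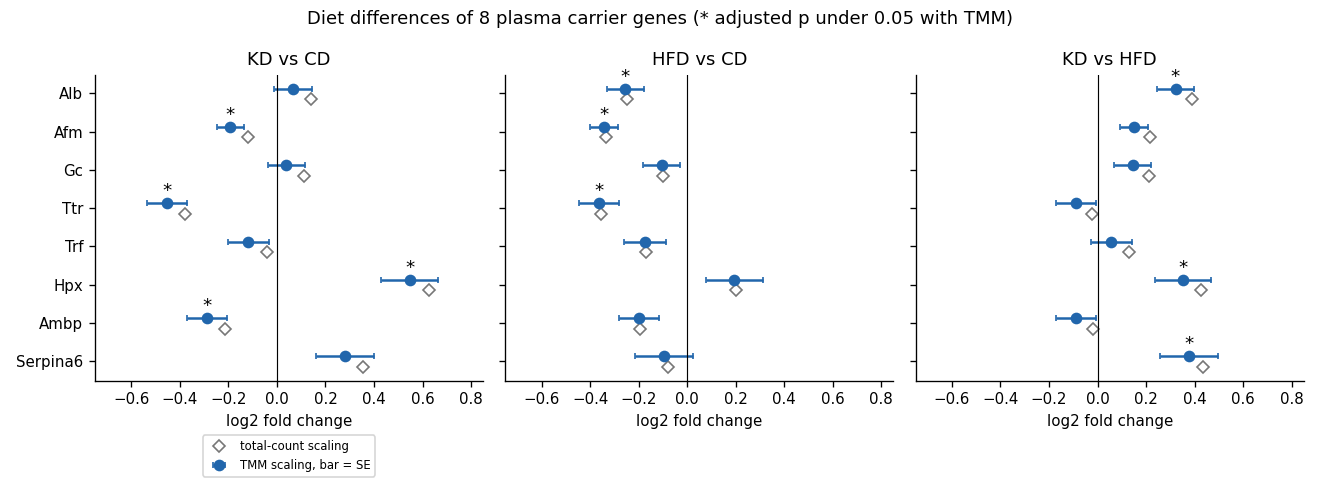
Log2 fold change of each carrier gene (rows) in KD against CD, HFD against CD and KD against HFD; filled points are TMM values with SE bars, open diamonds total-count values, and stars mark adjusted p under 0.05 with TMM. Ttr and Afm lie below 0 in both comparisons with CD, Hpx lies above 0 on KD, and total-count values sit to the right of the TMM values in both comparisons of KD.

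Scaling moved some of these calls. With total-count scaling, which moved the median log2 fold change of all genes up by 0.07 for KD against CD and by 0.06 for KD against HFD, the KD against CD calls were Hpx higher and Ttr and Ambp lower, and Afm lost its call. There 28.8% of all genes were called (19.7% higher, 9.06% lower). The KD against HFD calls became 5, all higher, with Afm and Gc added to Alb, Hpx and Serpina6, where 23.4% of all genes were called (16.5% higher, 6.87% lower). The HFD against CD calls became 4, all lower, with Ambp added to Ttr, Afm and Alb, where 11.7% of all genes were called (5.63% higher, 6.04% lower).

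Alb, Afm and Gc belong to the albumin gene family, whose members arose by duplication and share a helical fold of repeated domains. In GRCm38 with GENCODE M21, Alb (ENSMUSG00000029368.10) lies at chr5:90460897-90476602 on the plus strand and Afm (ENSMUSG00000029369.17) at chr5:90518932-90553543 on the plus strand. Gc (ENSMUSG00000035540.12) lies before them on the same chromosome at chr5:89417522-89457898 on the minus strand.

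Albumin was lower on HFD than on either other diet and close to chow on KD. Alb had 65511, 67692, 66039, 70883 and 64944 CPM in the KD libraries, 56137, 57174, 53932, 52345 and 48560 CPM in the HFD libraries, and 65846, 68416, 65104, 65569 and 55148 CPM in the CD libraries. All KD libraries lay above all HFD libraries, while CD library 19 fell inside the HFD range. Alb averaged 1.25 times as high on KD as on HFD (log2 fold change 0.32 ± 0.08, SE, edgeR adjusted p = 0.00518). It fell by 16.2% on HFD against CD (log2 fold change -0.26 ± 0.08, edgeR adjusted p = 0.0313). KD and CD differed by 0.07 ± 0.08 (edgeR adjusted p = 0.563), with a 95% interval of the log2 difference from -0.10 to 0.23. The HFD call was fragile. It was lost without any 1 of CD libraries 15, 16, 17 or 18 or HFD libraries 11, 12 or 14 (edgeR adjusted p up to 0.0766), and it held without CD 19 (-0.31, edgeR adjusted p = 0.0103). Of 13 alternatives other than leaving out 1 library, 9 kept the call. It was lost with dispersion not robust, no low-count filter or only HFD and CD fitted (edgeR adjusted p = 0.0904, 0.0519 and 0.0525). In TPM the HFD against CD difference was -0.30 (limma adjusted p = 0.147).

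The libraries also differed in effective length. The effective length of albumin transcripts was 1568 to 1596 bases in KD libraries, 1757, 1776, 1717, 1669 and 1667 bases in HFD libraries 9, 10, 11, 12 and 14, and 1662, 1619, 1630, 1624 and 1759 bases in CD libraries 15 to 19. CD library 19 had the longest of the CD libraries and the lowest albumin level among them. Within HFD, libraries 9 and 10 had the longest and the highest CPM. By percent of reads they were lower (5.22 and 5.24%) than HFD 12 and 14 (5.4 and 5.34%). They were also lower in TPM, at 32166 and 31155 against 39189 and 38856. Over 11494 transcripts, each with 100 reads or more in all libraries, the median effective length differed from the mean of the libraries by -0.06 to -0.04 (log2) in KD libraries. It differed by 0.05 to 0.09 in HFD 9, 10 and 11, by -0.03 to -0.02 in HFD 12 and 14, by -0.01 to 0.02 in CD 15 to 18, and by 0.08 in CD 19. Without the 4 long libraries, Alb was 0.42 higher on KD than on HFD (edgeR adjusted p = 0.0095) and fell by 0.40 on HFD against CD (edgeR adjusted p = 0.0185), both on the log2 scale. Both differences were larger without them. With effective lengths as offsets they were 0.37 and -0.30 (edgeR adjusted p = 0.0022 and 0.0149). In TPM, albumin was 0.40 higher on KD than on CD (limma adjusted p = 0.00604), beside a median over genes of 0.21.

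**Figure D3:**
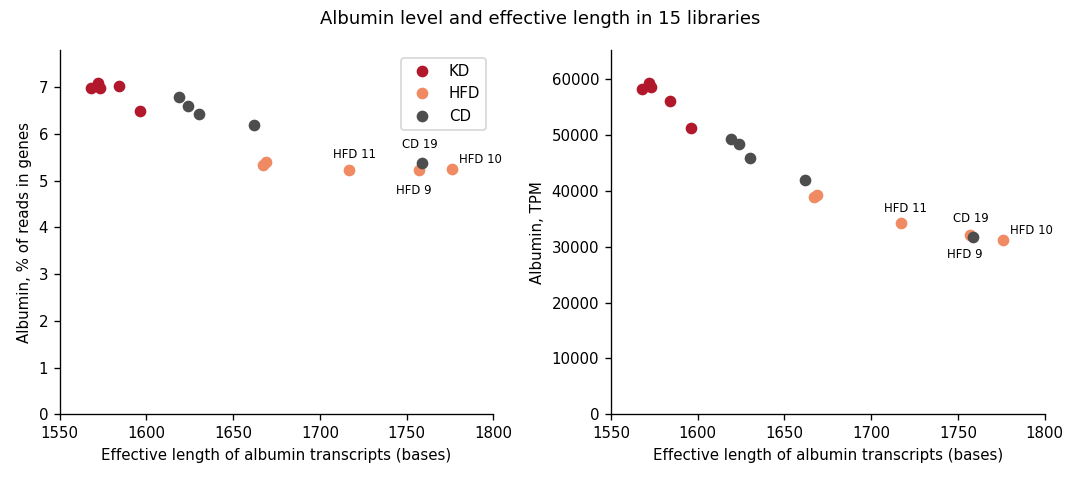
Albumin as percent of reads (left) and as TPM (right) against the effective length of its transcripts in bases, with a point per library coloured by diet. The KD libraries lie at 1568 to 1596 bases with the highest TPM, and CD 19 lies at 1759 bases beside HFD 9, 10 and 11.

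Afamin fell on both diets. Afm, a carrier of vitamin E and of lipid-modified Wnt proteins, had 215.1, 215.7, 201.7, 219.7 and 221.8 CPM in the KD libraries, 205.1, 207.3, 192.7, 181.2 and 181.0 CPM in the HFD libraries, and 230.4, 254.5, 250.8, 246.4 and 244.4 CPM in the CD libraries. Every KD and every HFD library lay below every CD library. It fell by 12.4% on KD (log2 fold change -0.19 ± 0.06, edgeR adjusted p = 0.015) and by 21.1% on HFD (-0.34 ± 0.06, edgeR adjusted p = 0.000654). Against HFD, KD differed by 0.15 ± 0.06 (edgeR adjusted p = 0.0569), with an interval from 0.03 to 0.27, and without the 4 long libraries it passed (0.25, edgeR adjusted p = 0.0161). The fall on KD lost its call with total-count scaling (-0.12, edgeR adjusted p = 0.103). In TPM, KD against CD was 0.16 (limma adjusted p = 0.198), beside a median over genes of 0.21.

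Gc did not pass the test in any of the 3 comparisons. It encodes the vitamin D-binding protein, which also scavenges actin from plasma. Gc had 5346, 5402, 5302, 5965 and 5930 CPM in the KD libraries, 5710, 5279, 4937, 4758 and 4600 CPM in the HFD libraries, and 5817, 5318, 5509, 4965 and 5601 CPM in the CD libraries. All 3 diets overlapped. The log2 difference of KD against CD was 0.04, with a 95% interval from -0.13 to 0.20. The HFD against CD difference was -0.11, with an interval from -0.27 to 0.06, and KD against HFD was 0.14, from -0.02 to 0.31. Without the 4 long libraries they were -0.22 and 0.26 and did not pass (edgeR adjusted p = 0.159 and 0.065). With total-count scaling the KD against HFD difference was 0.21 and passed (edgeR adjusted p = 0.00891).

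Transthyretin fell on both diets. Ttr (ENSMUSG00000061808.4, chr18:20665280-20674321, plus strand) carries thyroxine and, through retinol-binding protein, retinol. It had 2899, 2814, 2831, 3135 and 3418 CPM in the KD libraries, 3369, 3425, 3318, 2870 and 3064 CPM in the HFD libraries, and 4793, 3987, 4069, 3839 and 3965 CPM in the CD libraries. All KD and HFD libraries lay below all CD libraries. Ttr fell by 26.9% on KD (log2 fold change -0.45 ± 0.08, edgeR adjusted p = 0.00036) and by 22.3% on HFD (-0.36 ± 0.08, edgeR adjusted p = 0.00603). KD and HFD differed by -0.09 ± 0.08 (edgeR adjusted p = 0.462), with an interval from -0.27 to 0.09, and by 0.03 without the 4 long libraries. CD library 15 was the highest, and without it the falls were -0.39 on KD (edgeR adjusted p = 0.00129) and -0.31 on HFD (edgeR adjusted p = 0.0205). In TPM the fall on KD was -0.16 (limma adjusted p = 0.163), beside a median over genes of 0.21.

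The partner of transthyretin went the other way on KD. Rbp4, the retinol carrier that travels in plasma bound to transthyretin, had 2794, 2692, 2572, 2698 and 2818 CPM in the KD libraries, 2391, 2580, 2304, 2114 and 1976 CPM in the HFD libraries, and 2424, 2237, 2252, 1892 and 2170 CPM in the CD libraries. It rose on KD against CD by 0.31 ± 0.08 and against HFD by 0.26 ± 0.08 (log2, edgeR adjusted p = 0.00728 and 0.0258). HFD and CD differed by 0.05 ± 0.08 (edgeR adjusted p = 0.725). The call against HFD was lost without HFD 12, HFD 14, KD 2 or KD 8. The number of Rbp4 reads per Ttr read was 0.903 ± 0.0606 on KD (0.824 to 0.964), 0.708 ± 0.0418 on HFD (0.645 to 0.753) and 0.532 ± 0.0304 on CD (0.493 to 0.561). These ranges did not overlap. The ratio was chosen after the values of both genes were seen and is given without a test.

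A thyroxine carrier of higher affinity showed a different pattern. Serpina7 encodes thyroxine-binding globulin, and it averaged 39.0 ± 2.81 CPM on KD, 18.2 ± 5.28 CPM on HFD and 37.3 ± 7.55 CPM on CD (SD, n = 5 each). It fell by 1.03 on the log2 scale on HFD against CD (edgeR adjusted p = 0.00418) and was 1.09 higher on KD than on HFD (edgeR adjusted p = 0.00146). KD and CD differed by 0.06 ± 0.20 (edgeR adjusted p = 0.848).

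Hemopexin was the member that rose on KD. Hpx (ENSMUSG00000030895.9, chr7:105591613-105600137, minus strand) binds free heme and delivers it to the liver. It had 2338, 2429, 3259, 2320 and 2067 CPM in the KD libraries, 2434, 1931, 1963, 1676 and 1719 CPM in the HFD libraries, and 1862, 1636, 1703, 1510 and 1786 CPM in the CD libraries. All KD libraries lay above all CD libraries, and HFD overlapped both. Hpx averaged 1.46 times as high on KD as on CD (log2 fold change 0.55 ± 0.12, edgeR adjusted p = 0.00147) and 1.28 times as high as on HFD (0.35 ± 0.12, edgeR adjusted p = 0.0322). HFD against CD was 0.19 ± 0.12 (edgeR adjusted p = 0.274), with an interval from -0.06 to 0.45, and 0.01 without the 4 long libraries. KD library 4 was the highest. Without it, the rise against CD was 0.43 (edgeR adjusted p = 0.00401) and that against HFD was 0.24 and lost its call (edgeR adjusted p = 0.106). Without the 4 long libraries the difference from HFD was 0.56 (edgeR adjusted p = 0.0149). The call against HFD was also lost without KD 3 or any 1 of HFD libraries 10, 11, 12 or 14.

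Haptoglobin, which binds free hemoglobin, rose on both diets. Hp had 2297, 2645, 2916, 2509 and 2280 CPM in the KD libraries, 2018, 2032, 2122, 1981 and 2028 CPM in the HFD libraries, and 1684, 1593, 1702, 1346 and 1694 CPM in the CD libraries, with no overlap between any diets. It rose by 0.66 ± 0.08 on KD and by 0.34 ± 0.08 on HFD against CD (log2, edgeR adjusted p = 7.66e-06 and 0.00813). The HFD call was lost without the 4 long libraries (0.33, edgeR adjusted p = 0.0676). Lcn2, which binds bacterial siderophores and is a sensitive acute-phase gene, had 6.33, 22.3, 36.7, 9.5 and 5.42 CPM in the KD libraries, against 0.607 to 1.24 CPM in CD libraries (log2 fold change 4.23 ± 0.65, edgeR adjusted p = 0.000338). In the HFD libraries it had 5.69, 3.72, 1.8, 1.54 and 4.21 CPM, all above every CD library, though HFD against CD was not called. HFD 9 lay inside the KD range. KD library 4 was the highest for Hpx, Hp and Lcn2 alike. Other acute-phase genes named below went both ways on KD against CD. Itih4 and Cebpd rose (0.75 and 1.30), Orm1 fell (-0.56) and Orm2 did not pass. The Orm1 call was kept in 4 of 10 fits that left out 1 library. Of the genes known to fall in the acute-phase response, Ttr fell and Alb did not pass (0.07). The part of these acute-phase transcripts in the hemopexin result was not tested.

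**Figure D4:**
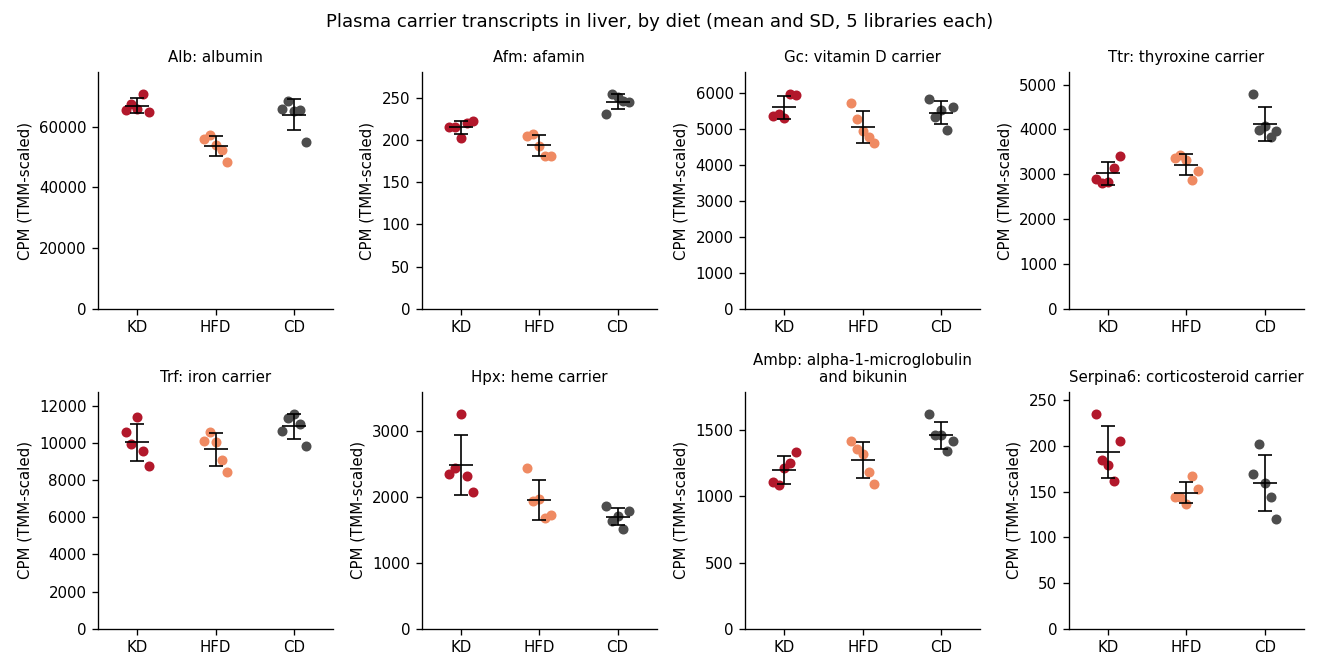
TMM-scaled CPM of the 8 carrier genes in KD, HFD and CD livers, left to right in each panel, with a point per library and bars for mean and SD (5 libraries each). Ttr and Afm are lower in every KD and HFD library than in any CD library, and Hpx is higher in every KD library than in any CD library.

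Transferrin did not pass the test in any comparison at the level of the gene. Trf (ENSMUSG00000032554.15, chr9:103204001-103230444, minus strand) carries ferric iron to cells. It had 10591, 9941, 11400, 9589 and 8792 CPM in the KD libraries, 10144, 10622, 10070, 9092 and 8453 CPM in the HFD libraries, and 10694, 11384, 11594, 11073 and 9858 CPM in the CD libraries, with overlap throughout. The log2 difference of KD against CD was -0.12 (95% interval from -0.30 to 0.07, edgeR adjusted p = 0.321). HFD against CD was -0.17 (from -0.36 to 0.01, edgeR adjusted p = 0.176), and KD against HFD was 0.06 (from -0.13 to 0.24, edgeR adjusted p = 0.665). Without the 4 long libraries, HFD against CD was -0.36 and passed (edgeR adjusted p = 0.0412). With effective lengths as offsets, both KD (-0.28, edgeR adjusted p = 0.0118) and HFD (-0.27, edgeR adjusted p = 0.0342) were lower than CD. The effective length of a gene is a TPM-weighted mean over its transcripts. These offsets therefore also carry the estimated split of reads between Trf transcripts, described next. For Trf it was 1195 to 1259 bases in KD libraries and 1100 to 1186 bases in CD libraries, longer on KD, where that of albumin was shorter.

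The split of transferrin reads between its transcripts did differ by diet. GENCODE M21 lists 9 Trf transcripts, 6 of them protein coding. Trf-203, of 2339 bases, took 23.0 ± 2.5% of transferrin reads on KD (19.9 to 26.3%), 13.8 ± 1.96% on HFD (11.7 to 16.5%) and 7.23 ± 4.45% on CD (0.58 to 11.5%), with no overlap between diets (SD, n = 5 each). The main transcript, Trf-201 of 2571 bases, took 57.8 ± 1.82% on KD, 64.0 ± 1.93% on HFD and 68.9 ± 4.29% on CD. Trf-209, an intron-retaining transcript of 433 bases, took 9.30% on KD, 10.7% on HFD and 11.9% on CD. Trf-201 and Trf-203 differ at their ends, and kallisto divides the reads they share by estimation, so these shares are uncertain. The lowest share of Trf-203, 0.58%, was in CD library 19, which has a long effective length. The shares were singled out after their values were seen and are given without a test. Of the other members, Alb was counted almost wholly on Alb-201, Ttr has 1 transcript, and the short transcript Gc-202 took 3.8 ± 0.39% on KD, 5.01 ± 0.555% on HFD and 5.49 ± 0.544% on CD.

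**Figure D5:**
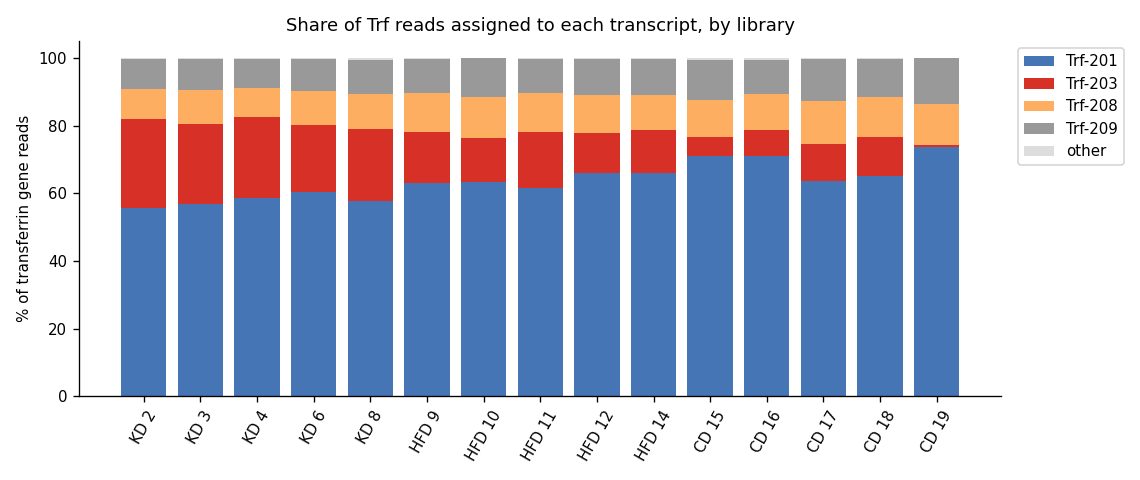
Percent of the reads of transferrin assigned to each of its transcripts, as stacked bars for each library in the order KD, HFD and CD; transcripts other than Trf-201, Trf-203, Trf-208 and Trf-209 are summed as other. Trf-203 takes 19.9 to 26.3% in KD libraries, 11.7 to 16.5% in HFD libraries and 0.58 to 11.5% in CD libraries.

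Ambp fell on KD. It encodes a precursor that is cut into alpha-1-microglobulin, a small carrier of heme and radicals, and bikunin, a protease inhibitor that is linked to heavy chains. Ambp (ENSMUSG00000028356.4, chr4:63143275-63154799, minus strand) had 1106, 1090, 1214, 1253 and 1339 CPM in the KD libraries, 1423, 1362, 1318, 1183 and 1093 CPM in the HFD libraries, and 1627, 1464, 1464, 1347 and 1423 CPM in the CD libraries. All KD libraries lay below all CD libraries, by a narrow margin, and HFD overlapped both. It fell by 18.1% on KD (log2 fold change -0.29 ± 0.08, edgeR adjusted p = 0.0134). HFD against CD was -0.20 ± 0.08 (edgeR adjusted p = 0.113), with an interval from -0.38 to -0.02. It passed with total-count scaling (-0.19, edgeR adjusted p = 0.0408) and without the 4 long libraries (-0.38, edgeR adjusted p = 0.0268). KD and HFD differed by -0.09, from -0.27 to 0.09, and by 0.08 without the 4 long libraries. In TPM, KD against CD was 0.03 (limma adjusted p = 0.798), beside a median over genes of 0.21.

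The heavy chains that bikunin joins and their relatives moved in both directions. Of 6 genes listed, 5 were tested, and 2 rose and 1 fell on KD against CD, where 16.2% of all genes rose and 14.6% fell. Itih1 and Itih2, the heavy chains of inter-alpha-inhibitor, did not pass in any comparison, and their KD against CD differences were -0.03 ± 0.06 and 0.11 ± 0.07. Itih3 rose on KD (0.32 ± 0.07, edgeR adjusted p = 0.00254) and on HFD (0.33 ± 0.07, edgeR adjusted p = 0.00523). Itih4, an acute-phase relative that does not bind bikunin, averaged 1586 ± 260 CPM on KD, 1143 ± 19.5 CPM on HFD and 940.9 ± 73.7 CPM on CD, and rose on KD by 0.75 ± 0.09 (edgeR adjusted p = 7.87e-06). Its HFD against CD difference of 0.28 (edgeR adjusted p = 0.0475) lost its call when any 1 of the 10 libraries was left out. Itih5 fell on KD by 1.08 and on HFD by 0.72 (log2, edgeR adjusted p = 4.76e-07 and 0.000217), at 7.41 ± 0.707 CPM on KD, 9.47 ± 1.59 CPM on HFD and 15.6 ± 1.34 CPM on CD. Tnfaip6, which transfers heavy chains to hyaluronan, was not tested, with 0 to 5 reads per library.

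The corticosteroid carrier was higher on KD than on HFD. Serpina6 (ENSMUSG00000060807.7, chr12:103646630-103657212, minus strand) encodes corticosteroid-binding globulin, the main plasma carrier of glucocorticoids. It had 235.4, 184.6, 178.9, 161.7 and 205.0 CPM in the KD libraries, 144.1, 144.0, 136.8, 167.1 and 152.4 CPM in the HFD libraries, and 169.4, 202.3, 159.8, 143.9 and 119.7 CPM in the CD libraries. The lowest KD library lay inside the HFD range, and CD overlapped both. It averaged 1.30 times as high on KD as on HFD (log2 fold change 0.38 ± 0.12, edgeR adjusted p = 0.0285). KD against CD was 0.28 ± 0.12 (edgeR adjusted p = 0.0863), with an interval from 0.02 to 0.54, and HFD against CD was -0.10 ± 0.12 (edgeR adjusted p = 0.638). The call was lost without KD 2, KD 8, HFD 9, HFD 10 or HFD 11. It was also lost without the 4 long libraries (0.28, edgeR adjusted p = 0.192). KD against CD passed without CD 16 (0.38, edgeR adjusted p = 0.0145) or KD 6 (0.34, edgeR adjusted p = 0.0457).

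Among the 8 genes, Ttr and Ambp varied most alike over the 15 libraries (Pearson r of log2 CPM 0.91), followed by Ttr and Afm (0.70), Alb and Afm (0.65) and Alb and Gc (0.62). Ttr and Hpx varied most oppositely (-0.56). Among 8615 genes averaging at least 5 CPM, the genes most like Alb over the 15 libraries were Agtr1a (0.940), Scly (0.938) and Anxa6 (0.906). Those most like Ttr were Rpl37 (0.953), Acbd6 (0.944) and Ndufa6 (0.942), and those most like Gc were Mycbp (0.951), Tomm7 (0.944) and Ndufs4 (0.937). Those most like Ambp were Rps2 (0.945), Tmem258 (0.941) and Nat8 (0.934). The closest to Hpx were Tbc1d8b (0.945), Tmem176a (0.922) and Golt1a (0.918). The closest to Afm were Dsg2 (0.932), Mrfap1 (0.914) and Ablim1 (0.907). Trf and Serpina6 had less close neighbours, led by Lsr (0.812), Habp4 (0.807) and Hapln4 (0.804) for Trf and by Nmt2 (0.857), Nptn (0.819) and Nadk (0.815) for Serpina6. These correlations describe libraries that share diet and effective length, and carry no test.

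Other secreted carriers more often rose than fell on KD. Of 20 listed, 17 were tested, and 8 rose and 2 fell on KD against CD, where 16.2% of all genes rose and 14.6% fell. Their median log2 fold change was 0.30, beside -0.01 over all genes. Of genes averaging at least 100 CPM, 56.4% were called on KD against CD, higher or lower. Not all of these carriers are that abundant. Selenop, which carries selenium, averaged 7672 ± 346 CPM on KD, 4833 ± 304 CPM on HFD and 5084 ± 293.7 CPM on CD, and rose by 0.59 ± 0.07 on KD (edgeR adjusted p = 4.61e-06). Cp, the copper-containing ferroxidase that helps load transferrin, averaged 1501 ± 78.5 CPM on KD, 1190 ± 59.1 CPM on HFD and 1151 ± 89.2 CPM on CD, and rose by 0.38 ± 0.07 (edgeR adjusted p = 0.000327). With effective lengths as offsets the difference was 0.20 (edgeR adjusted p = 0.0574). Igfbp2, a carrier of insulin-like growth factors, rose by 0.93 ± 0.15 on KD against CD and fell by 0.53 on HFD (log2, edgeR adjusted p = 0.000205 and 0.0249), and the HFD call was lost without CD 15, CD 18 or HFD 12. Hrg, which binds heparin and metals, and Apoh, which binds phospholipid, rose on KD by 0.49 ± 0.08 and 0.30 ± 0.07 (edgeR adjusted p = 0.000144 and 0.0037). Fetub, a protease inhibitor of the fetuin family, and Orm1, an acute-phase carrier of basic drugs, fell by 0.36 and 0.56 (edgeR adjusted p = 0.00488 and 0.0315). The Orm1 call was lost without any 1 of KD 2, 3, 6 or 8 or CD 15 or 18. On HFD against CD, 2 rose (Hp and Hrg) and 2 fell (Igfbp2 and Serpina7), where 8.3% of all genes rose and 7.32% fell. Without the 4 long libraries, filtering was redone and 18 were tested. Of these none rose and 3 fell, beside 956 and 1186 over all genes. On KD against HFD, 8 rose and 1 fell (Fetub), where 13.1% of all genes rose and 13.0% fell. Without those libraries 8 rose and none fell, beside 1666 and 1321 over all genes.

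The 7 other tested carriers did not pass on KD against CD. They were Apom, a carrier of sphingosine 1-phosphate (-0.19 ± 0.10), Igfals, which stabilises growth factor complexes (-0.15 ± 0.13), the fetuin Ahsg (-0.02 ± 0.09), Ecm1 (0.02 ± 0.10), Orm2 (-0.09 ± 0.38), Serpina7 and Afp. Afp, the fetal member of the albumin family that lies between Alb and Afm, had only 10 to 31 reads per library and differed by 0.58 ± 0.28 (edgeR adjusted p = 0.122). Shbg, Apod and A1bg were too low to be tested, with at most 2, 3 and 26 reads in a library.

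Of 23 regulators of hepatocyte secretory genes, 7 rose and none fell on KD against CD, where 16.2% of all genes rose and 14.6% fell. For HFD against CD 2 rose and none fell, a share near the 8.3% of all genes that rose. On KD against HFD 3 (Hlf, Cebpb and Cebpd) rose and 2 fell, beside 13.1% and 13.0% of all genes. With total-count scaling none of the 23 was called lower on KD than on HFD. Hlf, Tef and Dbp, related clock-driven factors of which Dbp is named for the albumin promoter, rose on KD by 0.68 ± 0.08, 0.71 ± 0.10 and 0.78 ± 0.20 (edgeR adjusted p = 6.46e-06, 3.29e-05 and 0.00634). Cebpd, an acute-phase regulator, rose by 1.30 ± 0.28 (edgeR adjusted p = 0.00237). Hlf and Tef also rose on HFD, by 0.33 ± 0.08 and 0.53 ± 0.10 (edgeR adjusted p = 0.0112 and 0.00195), and without the 4 long libraries the values were 0.28 and 0.24 and missed the threshold (edgeR adjusted p = 0.0942 and 0.101). Hnf4a, a master regulator of hepatocytes, averaged 530.9 ± 86.7 CPM on KD, 545.8 ± 72.0 CPM on HFD and 540.8 ± 49.2 CPM on CD, and passed in no comparison.

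Of 16 receptors and uptake proteins, 15 were tested, and 3 rose and 3 fell on KD against CD, shares near the 16.2% of all genes that rose and the 14.6% that fell. With total-count scaling 6 rose and 2 fell, where 19.7% of all genes rose and 9.06% fell. Fcgrt, the receptor that spares albumin and antibodies from breakdown, averaged 121.5 ± 5.13 CPM on KD, 99.5 ± 4.85 CPM on HFD and 94.3 ± 6.52 CPM on CD, and rose on KD against CD by 0.37 ± 0.06 (edgeR adjusted p = 8.95e-05). Scarb1, a lipoprotein receptor, rose by 0.64 ± 0.08 (edgeR adjusted p = 1.5e-05), and Stra6l, a receptor for retinol-binding protein in liver, fell by 0.44 (edgeR adjusted p = 0.000284). Lrp2, a receptor for many carriers best known from kidney, fell by 1.75 but held only 10 to 86 reads per library (edgeR adjusted p = 1.54e-05). The hemoglobin receptor Cd163 rose and the ferric reductase Steap3 fell. The 2 transferrin receptors, Tfrc and Tfr2, and the hemopexin receptor Lrp1 did not pass on KD against CD. On HFD against CD 3 rose, Scarb1, Lrp1 and Stab1, and none fell, where 8.3% of all genes rose and 7.32% fell. Without the 4 long libraries 3 rose and 2 fell, beside 956 and 1186 over all genes, with Scarb1 at 0.32 (edgeR adjusted p = 0.0606). On KD against HFD 2 rose and 4 fell, where 13.1% of all genes rose and 13.0% fell. There total-count scaling gave 6 higher and 2 lower, where 16.5% of all genes rose and 6.87% fell.

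Genes that handle the carried ligands moved in both directions. Of 22 listed, 21 were tested, and 8 rose and 5 fell on KD against CD, where 16.2% of all genes rose and 14.6% fell. Slc16a10, a transporter of aromatic amino acids and thyroid hormone, rose by 0.52 ± 0.07 (edgeR adjusted p = 1.58e-05). Dio1, the deiodinase that activates and clears thyroid hormone, averaged 179.6 ± 25.8 CPM on KD, 146.8 ± 22.7 CPM on HFD and 91.7 ± 18.6 CPM on CD, and both it and the thyroid hormone receptor Thrb rose. Ttpa, which loads vitamin E for export, rose by 1.19 ± 0.10 (edgeR adjusted p = 8.16e-08) and Ugt1a1, which conjugates bilirubin, by 0.65 ± 0.09 (edgeR adjusted p = 1.85e-05). Cyp2r1 and Cyp27a1, hydroxylases of vitamin D, the steroid reductase Srd5a1, the steroid dehydrogenase Hsd3b5 and the ferritin light chain Ftl1 fell. On HFD against CD, 5 rose and 3 fell, where 8.3% of all genes rose and 7.32% fell. The 3 that fell were Blvrb, a biliverdin reductase, and both ferritin chains, Ftl1 and Fth1. Without the 4 long libraries the balance turned, with 2 higher and 5 lower, beside 956 and 1186 over all genes. On KD against HFD, 8 rose and 3 fell, where 13.1% of all genes rose and 13.0% fell. Without those libraries 7 rose and 1 fell, beside 1666 and 1321 over all genes.

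The secretory route of these proteins was also examined. Of 20 genes of export from the endoplasmic reticulum, 12 rose and none fell on KD against CD, where 16.2% of all genes rose and 14.6% fell. The median log2 fold change was 0.29, beside -0.01 over all genes. Tango2, Sec24d, Sec23a and Sec31a rose by 0.89 ± 0.06, 0.84 ± 0.08, 0.58 ± 0.06 and 0.57 ± 0.06 (edgeR adjusted p = 1.41e-08, 2.22e-07, 1.52e-06 and 1.97e-06). The last 3 encode parts of the coat of transport vesicles. Sec24d averaged 87.6 ± 9.21 CPM on KD, 67.2 ± 4.92 CPM on HFD and 49.0 ± 3.97 CPM on CD. On HFD against CD, 8 rose and 1 fell (Mcfd2), where 8.3% of all genes rose and 7.32% fell. Without the 4 long libraries 5 rose and 5 fell, beside 956 and 1186 over all genes. On KD against HFD, 9 rose and none fell, where 13.1% of all genes rose and 13.0% fell.

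Of 34 genes of translocation and folding in the endoplasmic reticulum, 5 rose and 9 fell on KD against CD, where 16.2% of all genes rose and 14.6% fell. The balance turned with total-count scaling, which gave 9 higher and 7 lower, where 19.7% of all genes rose and 9.06% fell. It also turned with effective lengths as offsets, which gave 8 and 7, beside 1983 and 1781 over all genes. Calr, a calcium-binding chaperone of glycoproteins, averaged 590.6 ± 40.9 CPM on KD, 658.6 ± 118.7 CPM on HFD and 910.3 ± 84.0 CPM on CD, and fell by 0.62 on KD and 0.47 on HFD (log2, edgeR adjusted p = 0.000152 and 0.00538). The disulfide isomerase Pdia6 fell by 0.68 on KD (edgeR adjusted p = 0.00153), while another, P4hb, rose by 0.40 ± 0.08 (edgeR adjusted p = 0.00127). Leaving out 1 library at a time gave 4 to 9 lower calls on KD, the fewest without CD 19. On HFD against CD, 1 rose and 4 fell, where 8.3% of all genes rose and 7.32% fell. On KD against HFD 5 rose and none fell, where 13.1% of all genes rose and 13.0% fell. The HFD counts of this list turned on the libraries with long effective lengths, which also had the highest shares of major urinary protein reads. Without HFD 9 alone, 17 fell on HFD against CD and 12 rose on KD against HFD, beside 1313 and 1982 over all genes. Without all 4 long libraries, 19 of 34 fell on HFD against CD and 20 of 34 rose on KD against HFD. Over all genes these numbers were 1186 and 1666. With all libraries kept and effective lengths as offsets, 1 rose and 2 fell on HFD against CD, beside 741 and 839 over all genes. On KD against HFD the offsets gave 5 higher and 1 lower, beside 1590 and 1412 over all genes. Why the counts moved without the 4 libraries was not tested. With total-count scaling, 7 fell on HFD against CD, where 6.04% of all genes fell.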

How the data were processed

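Estimated counts of reads per transcript were deposited for 15 liver libraries (5 per diet), with TPM and effective lengths, per the file headers. The submitters' processing notes name Trimmomatic 0.36, kallisto 0.44, edgeR 3.28 and build GRCm38.p6. The sources used here give neither settings nor the annotation release. TPM values in the deposited files are the estimated counts scaled by effective length and depth. Of 11494 transcripts with 100 reads or more in all libraries, 9503 had an effective length above their own length somewhere, and TPM carries that.

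GENCODE M21 matched 105734 of 106332 transcripts to 25731 genes. The other 598 transcripts, with 0.184 to 0.223% of reads, were left out. Estimated counts were summed per gene and rounded. Genes were filtered with filterByExpr (minimum count 10, total 15), and edgeR 4.0.16 fitted all 15 libraries together (TMM factors, quasi-likelihood test with robust dispersion, 12 residual degrees of freedom). Benjamini-Hochberg adjustment ran over 13967 genes. The common coefficient of variation was 0.131, so the spread between libraries, more than depth, limits precision. The edgeR fit was also tested on simulated counts. Alternatives used limma 3.58.1 on log2(TPM + 1), where the pseudocount of 1 understates changes of low genes, and DESeq2 1.42.0, in R 4.3.3.

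The members, lists, tests and alternatives were chosen with earlier results of these data known. Named genes are the 8 members, all tested other carriers and heavy chains, up to 4 called genes per pathway list and comparison with the smallest adjusted p, and the 3 genes most like each member. Some results of the pathway lists are not reported here. Others named for counts of 5 or fewer, the ratio of Rbp4 to Ttr, transcript shares, Tfrc, Tfr2, Lrp1 and Hnf4a were chosen after values were seen, as were the effective-length offsets and the removal of HFD 9, 10 and 11 and CD 19.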

Additional observations from a re-analysis of the deposited data

Results flagged for a closer look

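Among 56 named genes, 168 groups of 5 libraries were examined for a library far from the other 4, and 6 were flagged, 2 of them among 24 groups of the 8 carrier genes. Chance flags about 1 in 20 groups. Alb was low in CD library 19, at 55148 CPM, where the other CD libraries had 65104 to 68416 CPM. That library also had a long effective length and the highest share of major urinary protein reads, 14.5%. Ttr was high in CD library 15, at 4793 CPM, where the others had 3839 to 4069 CPM. Orm1 was high in KD library 4, at 514.8 CPM, where the others had 285 to 332.3 CPM, and the same library was the highest for Hpx, Hp and Lcn2. Fetub was high in HFD library 11, at 429.6 CPM, where the others had 326.4 to 355.2 CPM. Sar1a was low in HFD library 14, at 62.5 CPM, where the others had 66.6 to 68.1 CPM. Selenop was low in CD library 18, at 4576 CPM, where the others had 5114 to 5320 CPM.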

How the results depend on the processing

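Over the alternatives run, 489 values of the 8 carrier genes kept their direction and side of the threshold, 29 lost a call, 23 gained one and 11 reversed. For other named genes 1877 kept both, 100 lost a call and 1 reversed. Other named genes entered only in comparisons where the main fit called them, so they could not gain a call. The carrier genes entered in every comparison, called or not, so the tallies cannot be set side by side. The causes were not tested. No paired analysis was possible because the library numbers do not recur between diets.

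In TPM, 4 members were called on KD against CD, all higher, where 5203 of 13967 genes were called. On HFD against CD 1 member and 470 genes were called, and on KD against HFD 7 members and 5177 genes. Calls were higher for 93.3% of genes on KD against CD (52.6% with TMM), 96.2% on KD against HFD (50.1%) and 25.3% on HFD against CD (53.1%). In TPM, the KD against CD values reversed to 0.159 for Afm, 0.031 for Ambp and 0.046 for Trf. The KD against HFD values reversed to 0.249 for Ambp, 0.218 for Ttr and 0.033 for Fetub. The median over genes in TPM was 0.206 on KD against CD and 0.211 on KD against HFD. Relative to it, Afm, Ambp and Trf were at -0.046, -0.174 and -0.16 on KD against CD. Ambp and Ttr were at 0.038 and 0.006 on KD against HFD. Total-count scaling gave 5 members for KD against HFD, and higher shares of 68.5% on KD against CD and 70.6% on KD against HFD. Upper-quartile scaling gave 39.8% on KD against CD and a reversed Gc there (-0.013). Counting protein-coding transcripts alone left 1 member, Alb, for KD against HFD. Without HFD 9, 10 and 11 and CD 19, 5 members and 2142 genes were called on HFD against CD, and KD against HFD reversed for Ambp (0.084) and Ttr (0.033). Offsets for effective length reversed Gc in KD against CD (-0.079) and Trf in KD against HFD (-0.016). For genes with more than 1 transcript, these offsets also carry the estimated split of reads between transcripts. Leaving out 1 library moved Serpina6 on HFD against CD between -0.182 (without CD 19) and 0.006 (without CD 16).

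Leaving out each library in turn gave 3602 to 4066 genes and 4 to 5 members for KD against CD, 1507 to 2754 genes and 2 to 3 members for HFD against CD, and 2862 to 3943 genes and 1 to 3 members for KD against HFD, with 1 without HFD 11. With 5 libraries per diet and differences mostly under 1.5-fold, members that missed the threshold are not shown to be alike between diets.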
